A study of Mus musculus with 16 samples.

Results

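Keratins of 2208L tumor cells were described as 9 genes, chosen by their symbols among the 32286 gene rows of each tumor matrix. They were grouped as luminal keratins (Krt7, Krt8, Krt18 and Krt19), basal keratins (Krt5, Krt14 and Krt17) and the Krt6 pair (Krt6a and Krt6b). The list was made because basal keratins were higher in treated tumors, so the differences between treatments that follow are a description of values that served to choose the genes, and no test was made of them. 2208L is a Trp53-null mouse mammary tumor, grown here as a transplant in the mammary fat pads of BALB/c hosts. All 4 libraries therefore share the tumor genotype and host strain, and they differ in treatment: vehicle, IACS-70654 (an inhibitor of the bromodomains of CBP and P300), anti-PD-1 antibody, or the combination of both agents. Each library pooled viable cells of 3 tumor-bearing mice, and there was 1 library per treatment. For vehicle and IACS-70654 the labels give 7 days of treatment on a schedule of 3 days on and 2 days off, and they give no duration for anti-PD-1 and the combination. Intervals are 95% intervals that cover counting error only. They do not hold the spread between mice, which pooling removed. Intervals of summed UMIs also leave out the spread between cells, and for some keratins a few cells held most UMIs.

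Keratins form the intermediate filaments of epithelial cells, and a filament is built from pairs of a type I and a type II protein. In the mammary gland, luminal cells carry Krt8 (type II) with Krt18 (type I), together with Krt7 and Krt19. Basal and myoepithelial cells carry Krt5 (type II) with Krt14 (type I). Krt6a and Krt6b (type II) with Krt16 and Krt17 (type I) are known from stratified and wounded epithelium.

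The libraries held 2062 to 5343 barcodes and 15590289 to 43594797 unique molecular identifiers (UMIs, 1 for each captured transcript), and no barcode was shared between libraries. The paper split tagged cells into samples, so this does not show that the captures were separate. Tumor cells were taken as the clusters that carried an epithelial marker list without any keratin. They numbered 398 with vehicle, 818 with IACS-70654, 500 with anti-PD-1 and 1228 with the combination, with 6353882 to 18386762 UMIs in all and median depths of 14020 to 16118 UMIs per cell. Epcam, an epithelial adhesion molecule, stood at 1466 to 1636 CPM (counts per 1e+06 UMIs, here of the summed tumor cells), against 18.7 to 27.1 CPM for the leukocyte gene Ptprc. Transcripts of Trp53 were counted at 61.0 to 68.3 CPM, and Trp63, a basal-cell transcription factor, had 3 to 12 UMIs per library. The 8 macrophage markers summed to 392 to 1376 CPM in tumor cells, and their part in the keratin values was not tested.

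The luminal pair Krt8 and Krt18 lies side by side on mouse chromosome 15 (Krt8, chr15:101996698-102004482, minus strand; Krt18, chr15:102028180-102032027, plus strand; GRCm38, the assembly also called mm10). Krt7 (chr15:101411043-101430313, plus strand) and Krt5 (chr15:101707070-101712898, minus strand) lie in the same type II cluster, as do Krt6a (chr15:101689910-101694307) and Krt6b (chr15:101676023-101680287). The type I genes Krt14 (chr11:100203162-100207548), Krt17 (chr11:100256217-100261029) and Krt19 (chr11:100140810-100148665) lie on chromosome 11. RefSeq promoter entries of GRCm38.p6 were found for 5 of the 9 genes. The 250 bases before the annotated start are shown for the luminal keratins that nearly every tumor cell carried and for Krt5, which was all but missing. Capitals mark GC boxes (GGGCGG, either strand) and a TATA-like word (ATAAAA, either strand, picked after the sequences were read).

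Krt8, chr15:102004343-102004592, minus strand: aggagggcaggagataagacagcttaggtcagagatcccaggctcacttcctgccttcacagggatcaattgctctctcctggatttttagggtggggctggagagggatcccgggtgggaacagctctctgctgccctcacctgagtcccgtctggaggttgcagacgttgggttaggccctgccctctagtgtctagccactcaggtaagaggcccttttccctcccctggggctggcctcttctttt
Krt18, chr15:102027966-102028215, plus strand: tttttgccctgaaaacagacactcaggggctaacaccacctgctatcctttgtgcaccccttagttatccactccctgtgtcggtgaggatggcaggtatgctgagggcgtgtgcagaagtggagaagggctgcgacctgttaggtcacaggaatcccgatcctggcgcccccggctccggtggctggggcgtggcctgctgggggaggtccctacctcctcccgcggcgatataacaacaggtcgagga
Krt7, chr15:101412153-101412402, plus strand: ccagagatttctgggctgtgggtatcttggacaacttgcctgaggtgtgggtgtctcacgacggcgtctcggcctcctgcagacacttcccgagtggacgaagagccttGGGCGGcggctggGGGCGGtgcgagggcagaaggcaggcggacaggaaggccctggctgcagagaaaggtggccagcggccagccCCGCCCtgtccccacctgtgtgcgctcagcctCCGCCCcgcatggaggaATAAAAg
Krt5, chr15:101712906-101713155, minus strand: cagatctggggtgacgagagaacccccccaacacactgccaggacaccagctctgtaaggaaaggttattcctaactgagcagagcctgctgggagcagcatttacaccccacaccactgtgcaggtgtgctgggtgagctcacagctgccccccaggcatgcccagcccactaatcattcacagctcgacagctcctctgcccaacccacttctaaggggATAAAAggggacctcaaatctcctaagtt

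Krt7 held 4 GC boxes and 1 TATA-like word, and Krt5 held 1 TATA-like word. Neither word was found in the windows of Krt8 and Krt18, and AP-1 (TGANTCA) and TATA box (TATAAA) words were found in none of the 4. Of 32817 promoters of this length, 32.7% held a GC box, 17% the TATA-like word, 12.4% the TATA box and 6.75% the AP-1 word. The RefSeq start of Krt7 lies inside the longer gene model given above, and the windows of Krt8 and Krt18 overlap theirs.

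Luminal keratins were abundant in tumor cells of every library. Krt18 stood at 2538 CPM (2499 to 2578) with vehicle, 2056 (2031 to 2081) with IACS-70654, 2365 (2332 to 2398) with anti-PD-1 and 2821 (2796 to 2845) with the combination. Krt8, its type II partner, stood at 1288 CPM with vehicle, 1251 with IACS-70654, 1208 with anti-PD-1 and 1960 with the combination. Krt7 counted 534, 594, 490 and 741 CPM in the same order. For all 3 genes the combination library was the highest. The other libraries differed little in Krt8, with intervals that overlapped between vehicle (1261 to 1317) and IACS-70654 (1232 to 1271).

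As log2 ratios, IACS-70654 against vehicle gave -0.04 for Krt8 (-0.08 to -0.003), -0.30 for Krt18 (-0.33 to -0.28) and 0.15 for Krt7 (0.10 to 0.21). The sign for Krt8 turned, to 0.00644, when cells above 6000 genes were kept. The combination against anti-PD-1, which shares no library with the former contrast, gave 0.70 for Krt8, 0.25 for Krt18 and 0.60 for Krt7. Over all genes with at least 50 UMIs the median log2 ratio was 0.12 in the first contrast and 0.06 in the second. The summed luminal keratins stood at 4360, 3922, 4063 and 5546 CPM in vehicle, IACS-70654, anti-PD-1 and combination.

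The summed level and the median cell gave different orders of the libraries. The median tumor cell held 14 Krt8 UMIs with vehicle, 10 with IACS-70654, 15 with anti-PD-1 and 12 with the combination, and 31, 24, 33.5 and 26 Krt18 UMIs. Both libraries with IACS-70654 were below both without it in these medians, but they were also shallower, at 14392 and 14020 median UMIs per cell against 15392 and 16118. At 5000 UMIs per cell the median of summed luminal keratins was 17 with vehicle and anti-PD-1, against 14 with IACS-70654 and 16 with the combination outside the Krt14-high cluster described later. Single cells reached 953 Krt8 and 1652 Krt18 UMIs in the combination, against at most 281 and 401 in the other 3 libraries.

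Krt19, another type I luminal keratin, was rare. No UMI was counted with vehicle, 254 in 9 cells with IACS-70654, 2 with anti-PD-1 and 447 in 14 cells with the combination. Against the vehicle library, set at the limit of 3 UMIs that a count of 0 allows, IACS-70654 was at least 43.1-fold higher, and the combination against anti-PD-1 gave a log2 ratio of 6.66 (4.8 to 9.71). Most of these UMIs sat in 1 small cluster of tumor cells (cluster 17), with 252 UMIs in 7 of 26 cells with IACS-70654 and 401 in 8 of 60 cells with the combination. The 27 cells of that cluster in the other libraries held 0 Krt19 UMIs of 108848, which allows up to 27.6 CPM. A few cells therefore set the Krt19 level.

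Among basal keratins Krt14 showed the widest range. It stood at 6.61 CPM (4.76 to 8.94) with vehicle, 428 (416 to 439) with IACS-70654, 15.1 (12.6 to 18) with anti-PD-1 and 599 (588 to 610) with the combination. Both libraries with IACS-70654 were far above both without it. The log2 ratio was 6.02 (5.58 to 6.49) for IACS-70654 against vehicle, 5.31 (5.05 to 5.57) for the combination against anti-PD-1 and 0.49 (0.44 to 0.53) for the combination against IACS-70654. Anti-PD-1 against vehicle gave 1.20 (0.68 to 1.74), and 87.3% of the anti-PD-1 UMIs of Krt14 came from the 10 cells with the most. Without the cell with the most Krt14 in each library, chosen after seeing the data, it was 0.63.

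Krt17 followed another order, with 21.9 CPM (18.4 to 25.8) with vehicle, 39.6 (36.2 to 43.3) with IACS-70654, 6.01 (4.46 to 7.92) with anti-PD-1 and 57.1 (53.7 to 60.7) with the combination. The vehicle library was above the anti-PD-1 library here, at a log2 ratio of -1.86 (-2.36 to -1.39) for anti-PD-1 against vehicle. The 10 cells with the most held 87.0% of the Krt17 UMIs with vehicle (139 UMIs, up to 44 in a cell) and 94.0% with anti-PD-1 (50 UMIs, up to 27 in a cell). Krt5, the type II partner of Krt14 in mammary basal cells, had 0 UMIs in 3 libraries and 1 UMI with IACS-70654. At this depth a count of 0 allows up to 3 UMIs per library. Krt14 was thus counted without its usual partner.

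The Krt6 pair of type II keratins was at or near 0 without IACS-70654. Krt6a had 0 UMIs with vehicle and 2 with anti-PD-1, against 118 CPM (112 to 124) with IACS-70654 and 178 (172 to 184) with the combination. Krt6b had 1 UMI with vehicle and 0 with anti-PD-1, against 33.3 CPM (30.1 to 36.6) with IACS-70654 and 44.2 (41.2 to 47.4) with the combination. Krt6a was at least 249.1-fold higher with IACS-70654 than with vehicle, and Krt6b at least 123-fold higher with the combination than with anti-PD-1, both against 3 UMIs in the library at 0. Krt6a and Krt6b share 40.6% of the 60-base words of the Krt6a transcript, but none of those in its last 400 bases, where the 3′ libraries are read. Krt17 shares 12 of the 341 words (3.52%) in the last 400 bases of Krt14. The part of this in the Krt17 counts was not tested.

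**Figure D1:**
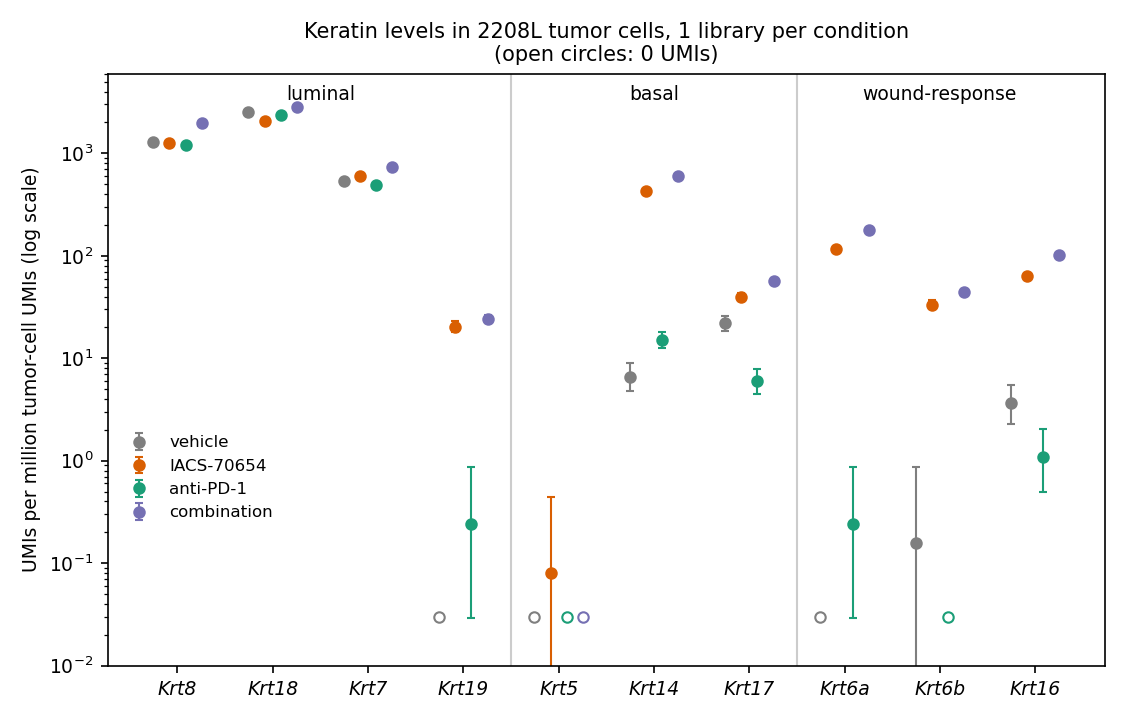
Levels of the member keratins in tumor cells (CPM, log axis) in the 4 libraries, with Krt16 beside them. Points stand for the single library of each treatment, bars for 95% exact Poisson intervals and open circles for 0 UMIs. Krt14 lies at 428 and 599 CPM in the libraries with IACS-70654 and at 6.61 and 15.1 CPM in the others, while Krt8 and Krt18 stay between 1208 and 2821 CPM in all 4.

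Of the 8 keratins with at least 50 UMIs in the libraries compared, 4 were over 2-fold higher with IACS-70654 than with vehicle (Krt6a, Krt6b, Krt14 and Krt19), beside 4.01% of all genes. In the combination against anti-PD-1 these 4 and Krt17 were over 2-fold higher, beside 5.12% of genes, and the combination against vehicle gave the same 5, beside 4.52%. No member was over 2-fold lower in these contrasts, beside 2.25%, 2.8% and 2.44% of genes. Nothing is read from these counts, since the genes were chosen for these contrasts. Anti-PD-1 against vehicle had 1 member over 2-fold higher (Krt14) and 1 lower (Krt17) of 5, beside 0.266% and 0.951% of genes, and the combination against IACS-70654 had 0 of 8 in either direction, beside 0.48% and 0.29%.

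Keratins outside the chosen list differed in both directions. Krt16, a type I keratin of the same stratified group, stood at 3.62 CPM with vehicle, 62.9 with IACS-70654, 1.08 with anti-PD-1 and 102 with the combination. Krt15, a type I keratin of basal stratified epithelium, had the opposite order with 67.7, 12.03, 86.99 and 11.4 CPM. Krt23 was likewise lower in both libraries with IACS-70654, at 38.2, 18.3, 51.6 and 22.03 CPM. Krt10, a type I keratin of cells above the basal layer, differed less, with 24.7, 34.4, 25.7 and 28.1 CPM. Of the 53 keratin rows in the files, 37 non-members had under 50 UMIs in tumor cells, and 23 of those had none.

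To compare cells at equal depth, tumor cells with at least 5000 UMIs were thinned to 5000. After thinning, 5.87% of vehicle cells (22 of 375, 3.71 to 8.75%), 16.7% of IACS-70654 cells (130 of 780, 14.1 to 19.5%), 2.74% of anti-PD-1 cells (13 of 474, 1.47 to 4.64%) and 16.6% of combination cells (190 of 1147, 14.5 to 18.9%) held a basal keratin UMI. Unthinned, the shares were 10.8, 24.1, 7.2 and 23.1%. Macrophages, which should lack these genes, held one in 0.594, 1.39, 1.05 and 1.63% of thinned cells in the same order, at median depths of 6422, 6370, 6192 and 6065 UMIs before thinning against 14020 to 16118 in tumor cells. For Krt14 alone the tumor-cell shares were 1.33% with vehicle and 1.90% with anti-PD-1, with intervals (0.434 to 3.08% and 0.872 to 3.57%) that overlapped those of macrophages (0.123 to 1.73% and 0.0638 to 1.89%). With IACS-70654 and the combination 12.3% and 10.4% of tumor cells held a Krt14 UMI, against 1.11% and 1.31% of macrophages. Krt15 was not counted among the basal keratins here and had the opposite order. A Krt15 UMI was found in 14.4% of thinned vehicle, 3.08% of IACS-70654, 17.9% of anti-PD-1 and 3.23% of combination tumor cells. The basal keratin shares thus depend on which keratins are counted.

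A luminal keratin UMI was present in 99.8 to 100% of thinned tumor cells, against 19.8 to 26.3% of macrophages. Basal keratins were therefore counted on top of luminal ones, and 1 cell of the combination, and none of the other libraries, held basal without luminal UMIs. The mean per 5000 UMIs was 0.227, 3.98, 0.101 and 4.48 basal keratin UMIs and 22.4, 20.1, 21.2 and 26.2 luminal ones, in the order vehicle, IACS-70654, anti-PD-1 and combination. Basal UMIs exceeded luminal UMIs in 0 of 375, 24 of 780, 0 of 474 and 44 of 1147 cells. A count of 0 allows shares of up to 0.8% and 0.633% with vehicle and anti-PD-1.

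The cells with most Krt14 also carried Krt6. At least 10 Krt14 UMIs per 5000 were found in 0 vehicle, 28 IACS-70654, 1 anti-PD-1 and 46 combination cells. A Krt6a or Krt6b UMI was found in 24 of these 28 and 44 of these 46 cells, and a luminal keratin UMI in 28 of 28 and 45 of 46. At least 50 Krt14 UMIs were found in 0, 17, 0 and 32 cells.

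**Figure D2:**
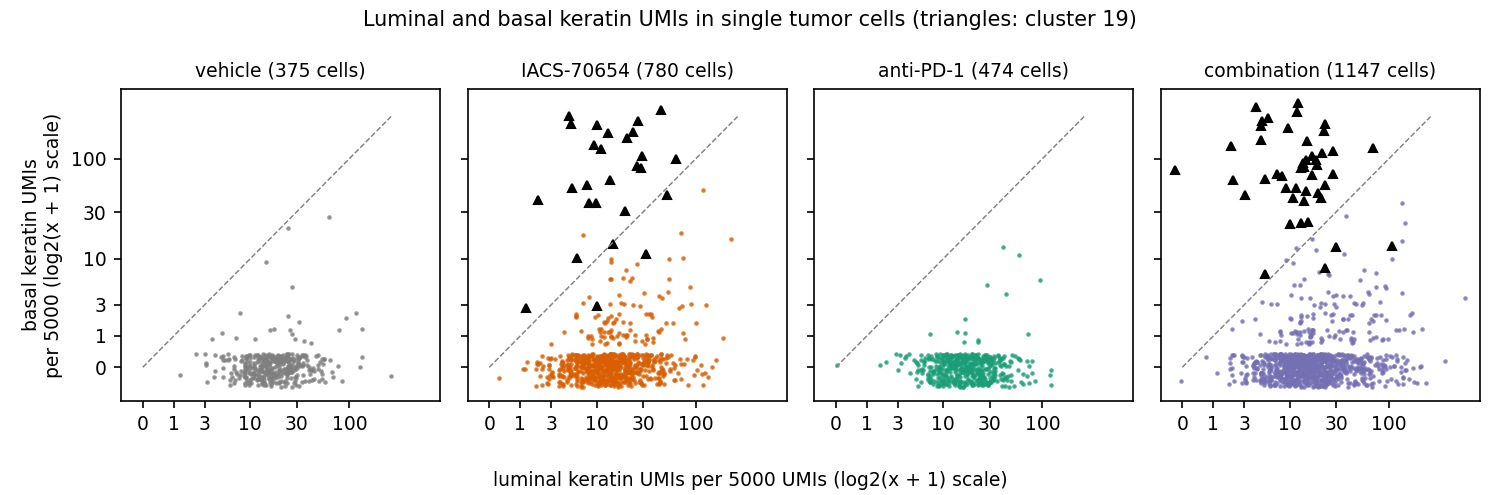
Basal against luminal keratin UMIs in single tumor cells thinned to 5000 UMIs, 1 panel per library and 1 point per cell with a small jitter, on log2(x + 1) axes, with triangles for the Krt14-high cluster described next (cluster 19) and a dashed line of equality. Cells in which basal exceed luminal UMIs number 24 with IACS-70654 and 44 with the combination, and 0 with vehicle and anti-PD-1.

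When cells were clustered with all keratins kept out of the variable genes, most Krt14 UMIs fell into 1 cluster (cluster 19) of 31 IACS-70654 and 53 combination cells, which were 3.79% (2.59 to 5.34%) and 4.32% (3.25 to 5.61%) of the tumor cells. Vehicle and anti-PD-1 had 0 of 398 and 0 of 500 cells there. This Krt14-high cluster held 91.0% and 93.4% of the Krt14 UMIs of the 2 libraries, 88.6% and 89.5% of Krt6a, 98.1% and 98.3% of Krt6b, but 4.05% and 8.0% of Krt17. Without its cells the log2 ratio of the summed basal keratins was 1.46 instead of 4.04 for IACS-70654 against vehicle and 2.17 instead of 4.96 for the combination against anti-PD-1. Most UMIs of Krt14 and of Krt17 thus came from different cells.

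In the Krt14-high cluster Krt14 stood at 16920 CPM with IACS-70654 and 18010 with the combination, Krt6a at 4527 and 5130, Krt6b at 1419 and 1399, and Krt16 at 2387 and 2656. The luminal keratins were still counted there, with Krt8 at 711 and 657 CPM, Krt18 at 864 and 874 and Krt7 at 1962 and 1875, while Krt5 and Krt19 had 0 UMIs. Of the UMIs of the 9 member keratins and Krt16 together, 70.1% and 70.5% in the cluster were of type I genes, against 55.2 to 58.5% over all tumor cells of a library. Per 5000 UMIs its median cell held 81 and 78 basal and 13 and 14 luminal keratin UMIs, and the median of the other tumor cells was 14 and 16 luminal UMIs in these libraries and 17 in vehicle and anti-PD-1. The median depth of its cells was 8560 UMIs with IACS-70654 and 9879 with the combination.

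The Krt14-high cells carried the tumor cells' raised share of UMIs from 1 stretch of chromosome 6. Genes between 17000000 and 25000000, 48 in number and chosen after their values were seen, gave 3.32% of UMIs in the Krt14-high cluster, 3.63% in the other tumor cells of the same libraries and 3.21% in tumor cells of vehicle and anti-PD-1. In macrophages, fibroblasts, endothelial cells and T or NK cells the share was 0.119, 0.447, 0.179 and 0.135%. Normal mammary epithelium was not among these types, so whether the share sets tumor cells apart from it was not tested. Single Krt14-high cells ranged from 1.02 to 4.89% with a median of 3.36%, against a median of 0.109% and a 95th percentile of 0.204% in 4632 single cells of those other types, the highest of which reached 4.11%. The 7 neutrophil markers summed to 1134 CPM in the Krt14-high cluster and 173 CPM in the other tumor cells of those libraries, and the 8 macrophage markers to 1308 and 1131 CPM, with no marker of either list at 0. Their part in the keratin values was not tested.

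Within clusters 5 and 10, Krt8, Krt18 and Krt7 were lower with IACS-70654 in both contrasts. In cluster 5, Krt8 gave a log2 ratio of -0.75 (-0.83 to -0.67) for IACS-70654 against vehicle and -0.47 (-0.55 to -0.40) for the combination against anti-PD-1, and Krt18 gave -0.75 and -0.54. In cluster 10, Krt8 gave -0.51 and -0.52 and Krt18 -0.48 and -0.52. Krt7 gave -0.36 and -0.23 in cluster 5, -0.43 and -0.32 in cluster 10 and -0.58 and 0.03 in cluster 6. Ratios were worked out for clusters 5, 6 and 10 only. In clusters 12, 14 and 22 Krt8 and Krt18 were also lower in both contrasts, in part in few cells. Cluster 17 went the other way. Its Krt8 level was 1416, 2438, 1090 and 2772 CPM in 13 vehicle, 26 IACS-70654, 14 anti-PD-1 and 60 combination cells. Its Krt18 level was 2529, 3633, 2241 and 3789 CPM. The whole libraries gave 0.70 for Krt8 and 0.25 for Krt18 in the second contrast, and 0.15 and 0.60 for Krt7 in both.

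The libraries differed in which clusters their tumor cells fell into, so whole-library ratios compare different mixtures of clusters. Cluster 12 made up 32.4% of tumor cells with vehicle and 34.2% with anti-PD-1, but 0.856% with IACS-70654 and 1.95% with the combination, and its Krt8 level was 989 and 954 CPM in the former libraries. Cluster 6 had the highest Krt8 level over the cells of all libraries, at 2840 CPM, although cluster 17 was above it with IACS-70654 (2438 CPM in 26 cells). Cluster 6 made up 10.1% of tumor cells with vehicle, 33.5% with IACS-70654, 11.8% with anti-PD-1 and 33.5% with the combination. Its Krt8 level was 2957, 1932, 2356 and 3511 CPM in this order, so the log2 ratio was -0.61 for IACS-70654 against vehicle and 0.58 for the combination against anti-PD-1. Krt17 in this cluster was 165, 81.3, 36.3 and 114 CPM. Both the share of cells and the level within them differed between libraries, and cluster membership was set by these cells' other genes.

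Outside the Krt14-high cluster the Krt14 differences were smaller. In cluster 5, Krt14 stood at 10.7 CPM with vehicle, 51.4 with IACS-70654, 16.96 with anti-PD-1 and 58.4 with the combination. In cluster 6 the first contrast had a log2 ratio of 0.86 (0.07 to 1.76) and the second -0.74 (-1.09 to -0.37), but 59 of the anti-PD-1 UMIs came from 1 cell. Without the cell with the most Krt14 in each library the second was 0.78, at 37.1 against 21.7 CPM, so its sign rests on that cell. In cluster 10 they were 2.69 (1.48 to 4.19) and 0.54 (-0.38 to 1.49). Krt15 was lower with IACS-70654 in all 3 clusters and both contrasts, by -2.17 to -4.66 on the log2 scale.

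**Figure D3:**
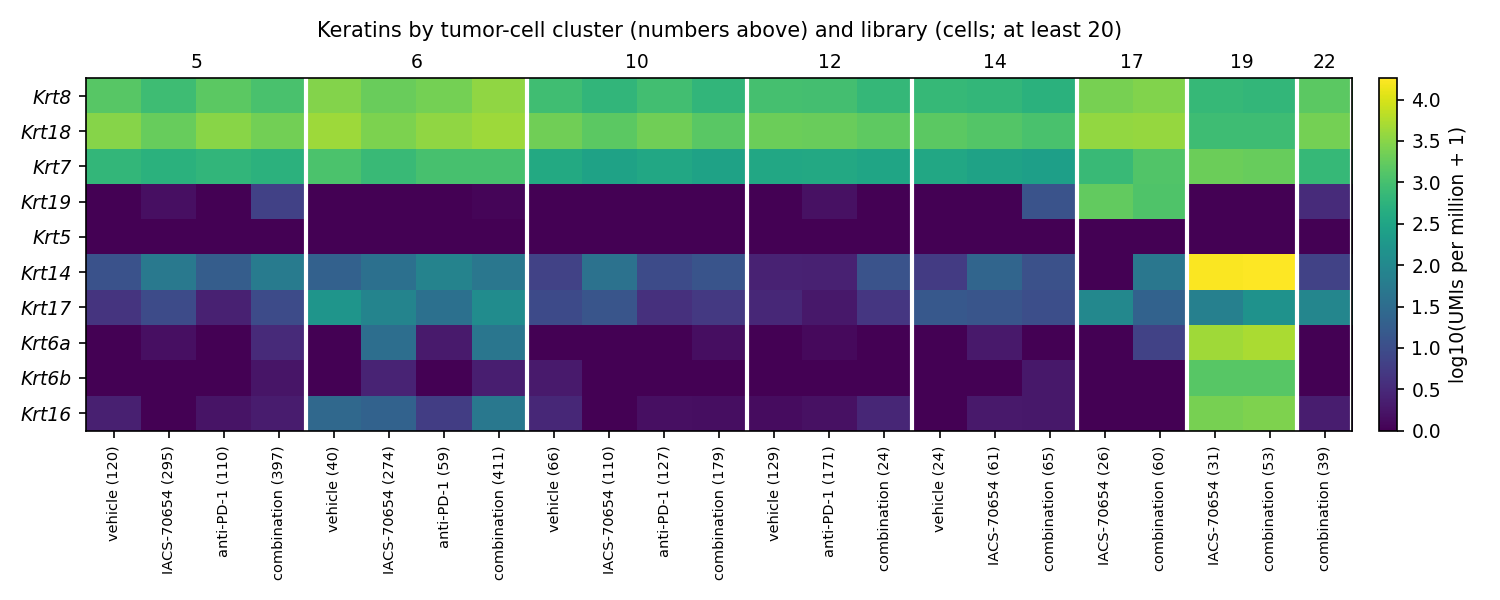
Keratin levels as log10(CPM + 1) in color, with genes in rows and, in columns, the libraries within each tumor-cell cluster that had at least 20 cells (cell numbers in parentheses). The Krt14-high cluster, present with IACS-70654 (31 cells) and the combination (53 cells), stands apart in Krt14, Krt6a and Krt6b, and Krt8 is highest in cluster 6 of the combination (3511 CPM).

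To ask which other genes differed in tumor cells with basal keratins, UMIs were summed per library over cells with at least 2 basal keratin UMIs per 5000 and over cells with 0. These were 83 and 650 cells with IACS-70654 and 124 and 957 with the combination. Vehicle and anti-PD-1 had 9 and 6 cells with basal UMIs and were left out, so the test rests on 2 libraries. With edgeR's quasi-likelihood test and the library as a block, 507 of 12292 genes (4.12%) were called at a Benjamini-Hochberg adjusted p under 0.01 and a log2 difference over 0.5 in size, 383 higher (3.12%) and 124 lower (1.01%) in cells with basal keratins. Krt5, Krt14 and Krt17 defined the cells and are no result. Values after ± are standard errors (SE) worked back from the test's F statistic. The 2 libraries had different treatments, so neither SE nor p holds the spread between replicate tumors.

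The Krt6 pair was higher in cells with basal keratins. Both genes belong to the chosen list, and most of their UMIs sat in the Krt14-high cluster, so their values are a description. Krt6a stood at 1181 against 10.7 CPM with IACS-70654 and at 1506 against 12.5 CPM with the combination, a log2 difference of 6.87 ± 0.13 (SE). Krt6b stood at 351 against 0.763 CPM and at 384 against 0.328 CPM (log2 9.47 ± 0.24). It had 386 and 693 UMIs with basal keratins against 8 and 5 without, so it passed the count filter through the former cells. Krt16 stood at 664 against 1.91 and at 827 against 6.496 CPM (log2 7.505 ± 0.21). Both libraries gave the same direction for each of the 3 genes.

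The luminal keratins Krt7, Krt8 and Krt18 were also higher in the summed cells with basal keratins, though for Krt8 and Krt18 not in the Krt14-high cluster, as given below. Each was called, but they too belong to the chosen list, so their values are a description. Krt8 stood at 2292 against 1108 CPM with IACS-70654 and at 3595 against 1704 CPM with the combination (log2 1.08 ± 0.08). Krt18 stood at 2870 against 1935 and at 4274 against 2605 CPM (log2 0.66 ± 0.08), and Krt7 at 1233 against 514 and at 1521 against 636 CPM (log2 1.28 ± 0.09). Krt19 was called lower, with 0 UMIs against 254 and 1 UMI against 446, but all its UMIs sat in 9 and 14 tumor cells, so this call rests on where few cells fell. Without the library as a block the calls of Krt8 (1.09) and Krt18 (0.68) were lost at a like size. Krt79, Krt80 and Krt23 were called higher (log2 6.35, 4.14 and 0.98), and Krt10 (-0.09) and Krt15 (0.41) were not called. The call of Krt23 was also lost with DESeq2 (0.99).

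Part of these calls rested on the Krt14-high cluster. Without its cells 121 genes were called, 83 higher and 38 lower, 106 of them shared with the 507. Krt6a (log2 2.81), Krt16 (5.17), Krt8 (1.48), Krt18 (1.06), Krt7 (1.10) and Krt19 (-5.72) were still called, whereas Krt79, Krt80 and Krt23 were not. Outside the Krt14-high cluster most Krt6a UMIs sat in cluster 6, with 165 UMIs with IACS-70654 and 328 with the combination. They lay in 2.555% and 8.03% of its cells. Most Krt16 UMIs sat there too (99 and 354), so both differences rest largely on cluster 6. Krt6b had too few UMIs for the test without the Krt14-high cluster. The Krt14-high cluster held 98.1% and 98.3% of the Krt6b UMIs, so the Krt6b difference rests on it. The higher Krt8 and Krt18 were counted in cells with basal UMIs outside the cluster. Inside it, as given above, Krt8 (711 and 657 CPM) and Krt18 (864 and 874 CPM) were below the cells without basal UMIs, and Krt7 (1962 and 1875 CPM) was above them. Outside it, cluster 6 gave the most cells with at least 2 basal UMIs, 25 of its 267 cells with IACS-70654 (9.36%) and 50 of 394 with the combination (12.7%). In this cluster they were 5 of 38 cells with vehicle (13.2%) and 3 of 56 with anti-PD-1 (5.36%).

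Genes of cell adhesion and of stratified epithelium differed with the basal keratins. The lists were chosen with earlier results of these data known. Krt16, S100a14, Perp, Dmkn and Dsg3 are also among the top marker genes of the Krt14-high cluster. The counts that follow are therefore a description. Of 12 desmosome genes, whose products anchor keratin filaments at cell contacts, 11 were tested and 8 were higher, with none lower, beside 3.12% of all genes higher and 1.01% lower, and had a median log2 difference of 2.33, against a median of -0.02 over all genes. Dsg3, a desmosomal cadherin, stood at 154 against 2.86 and 175 against 5.71 CPM (log2 5.27 ± 0.20), and Perp at 312 against 51.3 and 463 against 55.1 CPM (log2 2.87 ± 0.14). Of 21 squamous and wound-response genes 13 were tested and 9 were higher (median 2.61), among them Sprr1a, a cornified-envelope precursor (log2 7.37), Dmkn (6.65), Sbsn (4.12) and S100a14 (3.52). Some passed the count filter through the cells where they were high, so count and median are partly set by the filter. Sprr1a, with 64 and 452 UMIs against 6 and 20, and Calml3, with 40 and 67 against 7 and 23, were not tested without the Krt14-high cluster. Without the Krt14-high cluster 1 of 11 desmosome genes (Dsg2) and 5 of 11 squamous genes (Dmkn, Krt16, S100a14, Sbsn and Sfn) were called higher and 1 squamous gene (Ly6d) lower, beside 0.692% higher and 0.317% lower of the 11993 genes tested there. The medians of the 2 lists were then 0.58 and 1.05, against -0.02 over all genes.

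The other lists are read beside the same 3.12% of genes higher and 1.01% lower. The mammary basal list did not share the direction of the desmosome list. Of 17 basal and myoepithelial genes 4 had enough UMIs for the test, 0 were higher by edgeR or DESeq2 (0 at an unadjusted edgeR p under 0.05, with 3 lower), and Igfbp5, a secreted binding protein of insulin-like growth factors, was lower (log2 -1.13 ± 0.12). The 9 tested genes of the hemidesmosome list, whose products tie basal cells to the basement membrane, had a median of 0.28, and Plec, a linker of keratin filaments, was higher (0.72). Of 12 tested luminal progenitor and alveolar genes Ltf was higher (1.91) and Lcn2, Trf, Spp1 and Mfge8 were lower (-1.11, -1.11, -0.76 and -0.53). Of 7 hormone-sensing genes Areg was higher (1.502) and Prlr lower (-1.47), 0 of 9 epithelial-mesenchymal transition genes were called by edgeR or DESeq2 (3 lower at an unadjusted edgeR p under 0.05), and Mki67 (-1.52) and Top2a (-1.45) were the called members of 8 cell cycle genes, both lower. DESeq2 called none of the hemidesmosome, hormone-sensing and cell cycle genes. Of 56 genes called with edgeR and named by the fixed rule, 19 were not called without the block and 20 not with DESeq2. Areg, Prlr, Plec, Mfge8, Mki67, Top2a and Tgm1 were lost under both, Ltf and Sfn without the block and Dsg2 with DESeq2, whereas Igfbp5, Lcn2, Trf, Spp1, Dsg3, Perp, Sprr1a, Dmkn, Sbsn and S100a14 were called under both.

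The 10 called genes with the highest log2 difference were Cryba4, Cnfn, Krt6b, Klk7, Scel, Dsg1b, Nccrp1, Clic3, Klk14 and Mal. Each had 0 to 8 UMIs per library without basal keratins, so they passed the count filter through the cells where they were high. None was tested without the Krt14-high cluster, so their order is a description. Cnfn and Scel belong to the cornified envelope, Klk7 and Klk14 are proteases of the outer epidermis, and Dsg1b is a desmosomal cadherin. Cnfn had 213 UMIs with basal keratins and 0 without in the combination, at least 599-fold higher against 3 UMIs. Cryba4, Klk7, Scel, Dsg1b and Nccrp1 were not called with DESeq2. The 10 with the lowest were Adamts18, Ighm, Krt19, Ptn, Nrxn3, Gpx3, Igfbp2, Fmn2, Alkal2 and Fgg, of which Adamts18, Ighm, Nrxn3, Igfbp2 and Fgg were called neither with DESeq2 nor without the block, and Gpx3 not without the block. Both orders use fitted values, which depend on the prior count where a sum is at 0. Adamts18 and Ighm had 0 UMIs with basal keratins in both libraries, and their counts allow at least 1.68- and 4.39-fold and at least 1.82- and 2.06-fold lower levels with IACS-70654 and the combination, whereas Alkal2 was 7.04- and 18.1-fold lower on counted UMIs. Ptn, a secreted growth factor, stood at 92.5 CPM without basal keratins and 0 UMIs with them in IACS-70654, and at 92.1 against 2.21 CPM in the combination.

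Epcam was 0.39 higher on the log2 scale in cells with basal keratins (edgeR adjusted p = 0.0036, under the size set for a call), and Ptprc differed by 0.08 (adjusted p = 0.91). Of the 7 neutrophil markers 4 were called higher, including S100a9 (1.83) and G0s2 (1.92), beside 3.12% of all genes tested. As given above, these markers summed to 1134 CPM in the Krt14-high cluster and 173 CPM in the other tumor cells of those libraries. Their part in the keratin differences was not tested.

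Between libraries the desmosome and squamous lists had smaller medians, while the epithelial-mesenchymal transition and luminal progenitor medians were further from 0. In IACS-70654 against vehicle 4 of 11 desmosome genes with at least 50 UMIs were over 2-fold higher and 0 lower (median log2 ratio 0.52), beside 4.01% and 2.25% of all genes. In the combination against anti-PD-1 the counts were 5 of 11 and 0 (median 0.98), beside 5.12% and 2.8% of all genes. For squamous genes the counts were 4 of 12 higher and 1 lower (median 0.39), and 5 of 13 and 1 (median 0.54). Epithelial-mesenchymal transition genes had 0 of 9 higher and 4 lower (median -0.66), and 2 of 10 and 4 (median -0.83), and luminal progenitor genes 1 of 12 higher and 4 lower (median -0.71), and 1 of 13 and 3 (median -0.79). Perp stood at 32.1 CPM with vehicle, 76.5 with IACS-70654, 26.6 with anti-PD-1 and 102 with the combination. Of the 17 basal and myoepithelial genes, 4 reached 50 UMIs in each contrast, with 1 higher and 2 lower (median -0.49) in the first and 0 higher and 2 lower (median -0.34) in the second. Hormone-sensing genes had 3 of 7 higher (median 0.28) and 2 of 7 (median 0.61), with 0 lower, whereas their median within libraries was -0.96. Cell cycle genes turned likewise, with medians of 0.21 and 0.63 between libraries and -0.42 within them.

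**Figure D4:**
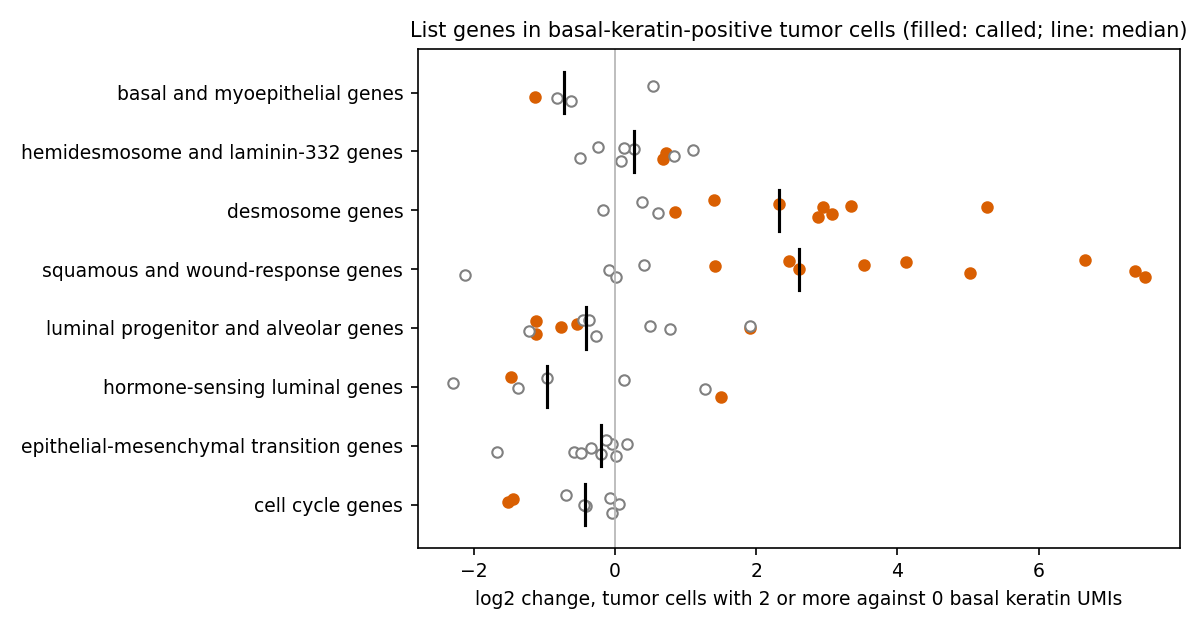
Log2 differences of the gene lists, chosen with earlier results of these data known, between tumor cells with and without basal keratin UMIs on the x axis (edgeR, IACS-70654 and combination libraries), 1 circle per gene, filled where called, with a line at each list's median. Desmosome and squamous lists have medians of 2.33 and 2.61, against -0.02 over all genes tested. Without the Krt14-high cluster, which is not shown, these medians were 0.58 and 1.05, against -0.02.

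Across single tumor cells, Krt8 and Krt18 had a mean Pearson correlation of log-normalized values of 0.72 over the 4 libraries. Among 9890 genes found in at least 5% of the tumor cells of every library, those most like Krt14 were S100a14 (0.45), Zbtb7c (0.43), Dsg3 (0.42), Pkp1 (0.38), Anxa8 (0.37) and Lor (0.37). Those most like Krt8 were Tagln2 (0.45), S100a6 (0.45), Anxa2 (0.44), Anxa5 (0.40), Tnfrsf12a (0.38) and Nlrp4e (0.37). These ranks average over libraries with few Krt14 UMIs. For S100a14 the correlation with Krt14 was 0.11 with vehicle and 0.31 with anti-PD-1, against 0.71 and 0.67 with IACS-70654 and the combination. In these latter libraries Dsg3 (0.81 and 0.76) was above S100a14 and Lor had 0.69 and 0.76, with -0.02 and 0.11 for Dsg3 and 0.001 and 0.03 for Lor in vehicle and anti-PD-1. Krt14 against Krt8 gave -0.10 with IACS-70654 and -0.24 with the combination, and Krt14 against Krt18 gave -0.25 and -0.32, whereas vehicle gave 0.02 for both pairs and anti-PD-1 0.14 and 0.12. Within the Krt14-high cluster Krt14 and Krt6a had 0.90 (IACS-70654, 31 cells) and 0.84 (combination, 53 cells), and Krt14 and Krt8 had -0.30 and -0.59. Krt14 was thus lower in cells with more Krt8 there. Cells of a library share its depth and ambient RNA, so these values are a description.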

How the data were processed

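RNA of single viable cells of 4 tumor libraries, 1 per treatment, was analysed, and bone marrow libraries were not used here. The authors made the deposited UMI counts per gene and cell with Cell Ranger (7.1.0 per the file headers), without normalization. The labels name mm10, and GENCODE vM21 gave gene positions. Cells with 200 to 6000 genes and at most 10% mitochondrial UMIs were kept and clustered (2000 variable genes without keratins, 30 principal components, 20 neighbors, Leiden resolution 1.0, leidenalg 0.10.2). According to the paper, tumor suspensions were tagged with oligos and split into samples with Cell Ranger before these counts. Scrublet (scanpy 1.11.5) called 6, 0, 7 and 0 doublets. Such few calls may miss doublets, so an alternative removed tumor cells with a Ptprc UMI. Whether free RNA was shared between libraries was not tested. CPM, exact Poisson and binomial intervals and thinning used Python 3.11.15. Sums with and without basal keratins were compared with edgeR 4.0.16 (filterByExpr, TMM, library as a block because both sums come from 1 library), with DESeq2 1.42.0 as an alternative. On simulated data this step recovered 31% of 200 genes changed by a log2 of 1, with 0 false calls. The simulation gave every gene the same dispersion and both sums the same mix of clusters. It therefore does not give the rate of false calls in these data. The members, gene lists and tests were chosen with earlier results of these data known. Named genes were all keratins with at least 50 UMIs, the called list members, and the 10 highest and 10 lowest called genes. 1 called list member is not reported here.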

Additional observations from a re-analysis of the deposited data

Results flagged for a closer look

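Krt8, Krt18 and the summed luminal keratins had opposite signs in the contrasts that share no library, while Krt7 and Krt19 were higher in both. Within cluster 5 (-0.36 and -0.23) and cluster 10 (-0.43 and -0.32) Krt7 was lower in both contrasts. Krt8 had a log2 ratio of -0.042 for IACS-70654 against vehicle and 0.70 for the combination against anti-PD-1. The negative sign for Krt8 turned, to 0.00644, when cells above 6000 genes were kept. Krt18 had -0.30 and 0.25, and the summed luminal keratins had -0.15 and 0.45. With 1 library per treatment the difference was not tested. Single cells of the combination reached 953 Krt8 and 1652 Krt18 UMIs. Without the cell with the most of the gene in each library, the combination against anti-PD-1 was 0.698 for Krt8 and 0.22 for Krt18.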

How the results depend on the processing

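With 1 library per treatment, no value here holds the spread between mice, and doublets and free RNA could not be removed cell by cell. Depth limits Krt5, Krt6a, Krt6b and Krt19 without IACS-70654 to statements about 0 to 2 UMIs. Leaving out 1 of the 2 libraries of the edgeR fit left no residual degrees of freedom, so no such value is given, and no pairing of treatments was possible because each treatment had 1 library. Without the library as a replicate block 236 genes were called instead of 507.

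No direction of the summed basal or luminal ratios changed under the alternatives run, but sizes did. For basal keratins, IACS-70654 against vehicle (4.04) was 4.47 as a mean of per-cell CPM, 3.80 with no upper limit on genes, 4.35 in cells with Epcam and no Ptprc UMI, 4.34 (4.335) without cells with a Ptprc UMI and 1.46 without the Krt14-high cluster. The combination against anti-PD-1 (4.96) was 5.70 as a per-cell mean, 4.61 with Epcam and no Ptprc, 4.63 without Ptprc cells and 2.17 without the cluster. Anti-PD-1 against vehicle (-0.43) was -0.83 as a per-cell mean and -0.12 with Epcam and no Ptprc. The combination against vehicle (4.53) was 4.87 as a per-cell mean, 4.30 (4.295) with no upper limit and 1.74 without the cluster, and against IACS-70654 (0.49) it was 0.40 as a per-cell mean, 0.14 (0.1446 and 0.1445) under both Ptprc settings and 0.28 without the cluster.

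For luminal keratins, IACS-70654 against vehicle was -0.27 with TMM scaling, -0.091 with no upper limit and -0.13 without Ptprc cells. The combination against anti-PD-1 was 0.39 with TMM, 0.31 as a per-cell mean, 0.52 with Epcam and no Ptprc, 0.51 without Ptprc cells and 0.49 without cluster 14, in which Ptprc was highest. Anti-PD-1 against vehicle was -0.14 with TMM, -0.060 with no upper limit and -0.13 without cluster 14. The combination against vehicle was 0.24 with TMM, 0.22 as a per-cell mean, 0.39 with no upper limit, 0.41 with Epcam and no Ptprc, 0.40 without Ptprc cells and 0.37 without cluster 14, and against IACS-70654 0.38 as a per-cell mean, 0.48 with no upper limit, 0.55 with Epcam and no Ptprc and 0.54 (0.535) without Ptprc cells.

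For Krt6a and Krt6b summed, leaving out the Krt14-high cluster gave 6.52 for IACS-70654 against vehicle, 6.38 for the combination against anti-PD-1, 6.99 against vehicle and 0.47 against IACS-70654, and the last was 0.35 (0.3473 and 0.3458) under both Ptprc settings. Anti-PD-1 against vehicle, at 2 and 1 UMIs, was 0.61 and turned to -0.45 (-0.446) with Epcam and no Ptprc UMI and to -0.46 (-0.4551) without Ptprc cells, within counting error.

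The share of cells with a basal keratin UMI in vehicle, IACS-70654, anti-PD-1 and combination was 2.40, 10.6, 1.27 and 10.8% with at least 2 UMIs, and 10.8, 24.1, 7.2 and 23.1% without thinning. Thinned to 2000 UMIs it was 2.33, 12.4 and 11.2% in vehicle, IACS-70654 and combination, and without the Krt14-high cluster 13.7 and 13.2% in the IACS-70654 libraries. The anti-PD-1 share (2.74%) was 4.58% with no upper limit on genes and 4.34% (4.337) with Epcam and no Ptprc.

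The 507 genes became 207 with DESeq2, 173 with at least 1 UMI against 0, 121 without the Krt14-high cluster and 286 with all 4 libraries, from which leaving out vehicle, IACS-70654, anti-PD-1 or combination gave 476, 248, 236 or 151. Krt23 reversed to -0.44 and Evpl to -0.53 without the cluster, and Krt23 to -0.062 with all 4 libraries but the combination. The settings without the cluster, without Ptprc cells, without cluster 14 and with all 4 libraries were chosen after seeing the data. The causes were not tested.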

Other observations

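Some keratins outside the chosen list had low counts that rested on 1 cluster. Krt79 stood at 3.62 CPM with vehicle, 10.0 with IACS-70654, 8.41 with anti-PD-1 and 21.9 with the combination, and Krt80 at 2.20, 5.45, 2.52 and 9.30 CPM. The Krt14-high cluster held 112 of 125 Krt79 UMIs with IACS-70654 and 350 of 403 with the combination, and without it Krt79 was lower in both than in their comparison libraries, with log2 ratios of -1.76 for IACS-70654 against vehicle, -1.50 for the combination against anti-PD-1 and -0.28 against vehicle. For the second of these, 42 of the 70 anti-PD-1 UMIs sat in 1 cell, and without the cell with the most Krt79 in each library it was -0.26. Krt80 changed sign without it only for IACS-70654 against vehicle (-0.05). Krt27, at 2.20, 0.160, 2.88 and 0.598 CPM, was lower in both libraries with IACS-70654, and 11 of 14 vehicle and 17 of 24 anti-PD-1 UMIs sat in cluster 12, which was rare with IACS-70654 and the combination.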
